A study of Oncorhynchus kisutch with 226 samples.

Results

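In livers of juvenile coho salmon (Oncorhynchus kisutch), 150 array probes were about 2.7 times brighter in hatchery than wild smolts of the Capilano River. The probes were chosen by that contrast, among probes whose season means had no wide gap between neighbours in sorted order. The season means of a chosen probe still differed, with a median range of 0.74 and a largest range of 1.31 on the log2 scale. Of 43567 probes in the deposited table, 16802 were measured on at least 80% of the 226 arrays. Of these, 8885 had season means without a gap of 0.4 or more on the log2 scale between neighbours in sorted order, and are called season-flat below. Among the season-flat probes 512 had a mean at least 1 higher in the 10 Capilano hatchery smolts than in the 10 Capilano wild smolts, and the 150 largest were taken. Levels in those 20 smolts and differences between seasons were therefore selected on and are given as descriptions, without a test. Tests were run on smolts of the other rivers and on summer and fall fish at sea. Parr, spring fish and winter fish are described without a test.

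Each value is a log2 ratio on a 2-colour array between the liver RNA of 1 fish and a reference pooled from the livers of all fish, so a difference of 1 is a factor of 2. Fish over reference is the likely direction, which the sources used here leave unstated. If the ratio were inverted, "higher" and "lower" would change places and all counts would hold. The probe identifiers give only the column and row of a spot and were not paired with genes in the sources used here, so no gene or sequence is given, and the labelled tissue was not checked against liver marker genes.

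Each array held 1 fish. The freshwater fish were 8 parr (Parr_River, hatchery, Chilliwack, 2008) and 54 smolts (Smolt_River), which is the stage that leaves the river. The smolts were 10 hatchery and 10 wild fish of the Capilano (stock label S_Main, 2009), 9 hatchery fish of the Chehalis and 7 wild fish of the Salmon River (both stock label Fraser, 2009), 10 hatchery fish of the Puntledge (stock label ECVI, 2009) and 8 wild fish of the Chilliwack (2008). Chilliwack parr and smolts had the stock label Chilliwack_R. The fish at sea were 14 spring fish, 67 summer fish, 71 fall fish and 12 winter fish. All spring fish were wild and from the southern Strait of Georgia. Summer fish were 26 hatchery and 36 wild in 2009, and 1 hatchery and 4 wild in 2008. Fall fish were 27 hatchery and 36 wild in 2009, and 8 wild in 2008. Winter fish were 6 hatchery and 6 wild. Stock labels at sea were ECVI, Fraser, S_Main, Chilliwack_R, Puget_Sound, Columbia, Oregon and North, and some fish had none. Most sea catches were from 2009, and came from the northern, middle and southern Strait of Georgia or the west coast of Vancouver Island. No treatment was applied, and age is not given in the labels used here. Between 12760 and 30826 probes were measured per array, and the number of arrays limits the precision. Nothing in the labels names the hatchery tanks, families or catch hauls, so fish of a group may share them.

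Coho salmon spend their early life in fresh water and then pass through smoltification, a hormonally driven change that prepares gill, kidney, liver and behaviour for seawater. The liver is the main organ of energy storage, lipid and plasma protein synthesis in fish, and its transcript levels are known to follow feeding, growth and body condition. Hatchery smolts are reared on prepared feed up to release, whereas wild smolts feed on natural prey in the stream. In whole liver RNA, fewer cells of a type and less RNA per cell cannot be told apart.

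The Capilano smolts differed on measures that did not enter the choice of probes. Hatchery smolts were 11.55 ± 0.677 cm in fork length (SD, n = 10), and wild smolts 10.29 ± 1.33 cm (n = 10, permutation adjusted p = 0.0149). Condition factor, body mass in g over the cube of fork length in cm and in percent, was 1.17 ± 0.0741 in hatchery and 0.965 ± 0.0547 in wild smolts (permutation adjusted p = 4.33e-05). All hatchery smolts, from 1.06 to 1.30, lay above all wild smolts, from 0.875 to 1.05. The number of measured probes per array did not pass the test (hatchery minus wild 267.8, permutation adjusted p = 0.823). The 6 control spots of the deposited table that were measured on at least 80% of arrays averaged 0.513 ± 0.181 in hatchery and 0.124 ± 0.102 in wild smolts (permutation adjusted p = 6.50e-05). These were exact two-sided permutation tests of 4 measures with Benjamini-Hochberg adjustment. They treated fish as independent and left slide out. Control spots and measured probes are measures of the array, and arrays of a slide may be alike. For these measures the p-value therefore does not cover the spread between slides. The control difference runs the same way as that of the 150 probes, and its part in their difference was not tested.

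No slide held Capilano smolts of both origins, so the effects of slide and of origin cannot be told apart in them. The hatchery smolts lay on 5 slides and the wild smolts on 4. One wild smolt stood apart from its group, with a mean over the 150 probes of 0.674 against -0.512 for the next wild smolt. It shared its slide with wild smolts at -1.12 and -0.928.

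Averaged over the 150 probes, the Capilano hatchery smolts stood at 0.831 ± 0.275, from 0.234 to 1.23 with a median of 0.873 (n = 10). The Capilano wild smolts stood at -0.724 ± 0.543, from -1.18 to 0.674 with a median of -0.853 (n = 10), and at -0.880 ± 0.244 without the fish that stood apart. The groups overlapped through that wild fish alone, which lay within the range of the hatchery fish. The difference of means per probe ran from 1.29 to 2.79, with a median of 1.44 or 2.71-fold, against a median of 0.05 over all season-flat probes. Without that wild fish the probes' differences ran from 1.34 to 3.17, with a median of 1.62. In 16 of the 150 probes every measured hatchery smolt lay above every measured wild smolt, where 1.02% of all season-flat probes did so, and the choice of probes used this contrast. Without that wild fish the count was 96, where 5.06% of all season-flat probes did so.

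**Figure D1:**
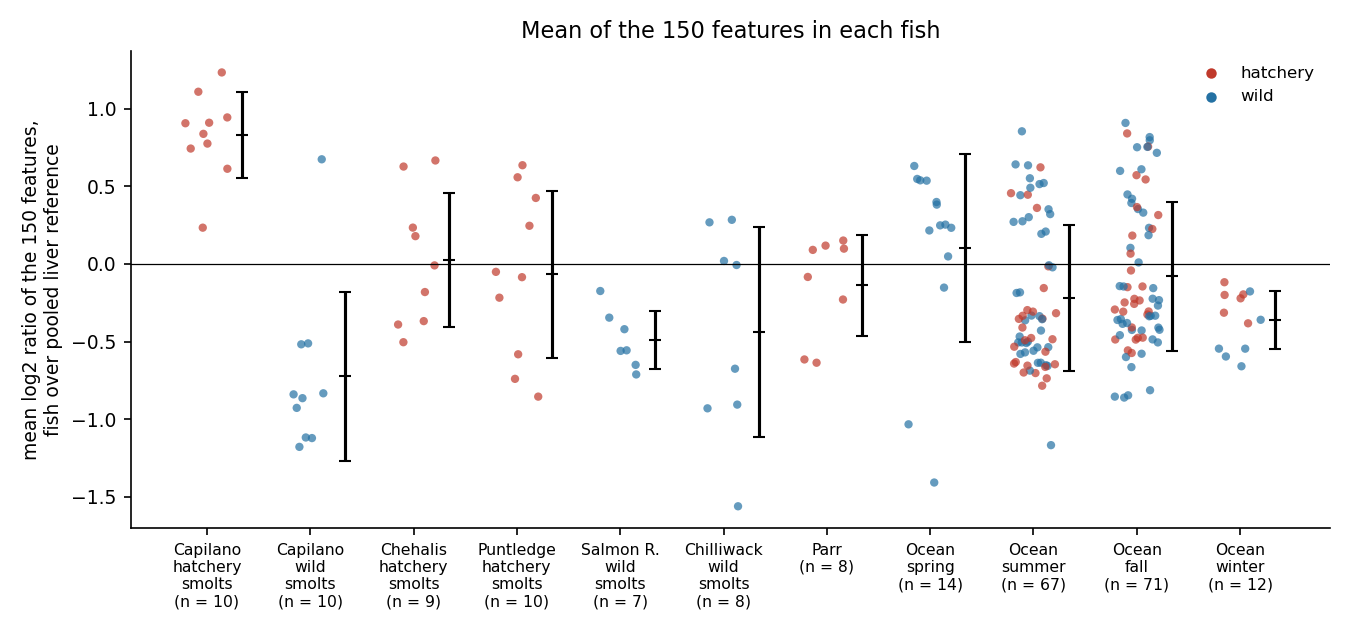
Mean log2 ratio of the 150 probes in each fish (points, red hatchery and blue wild), by group, with the group mean and SD beside the points (black). The 10 Capilano hatchery smolts lie between 0.234 and 1.23, and 9 of the 10 Capilano wild smolts at or below -0.512.

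The probe with the largest difference was C072R068. It ranged from -0.66 through a median of 0.94 to 2.63 in the 10 hatchery smolts, and from -3.54 through -1.84 to 1.59 in the 10 wild smolts. Of the hatchery smolts 9 lay above the level of the pool and of the wild smolts 1. That wild smolt lay well inside the hatchery range, above the hatchery median, and the next wild smolt, at -0.91, lay below every hatchery smolt. In the other smolts its mean was 0.14 ± 1.20 in the Puntledge (n = 10), -0.35 ± 0.96 in the Chehalis (n = 9), -0.42 ± 0.71 in the Salmon River (n = 7) and -1.07 ± 1.70 in the Chilliwack (n = 8). These neighbouring means lay closer together than 1 SD of the fish.

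C020R077 was the next. It ranged from -0.32 through 1.11 to 2.24 in hatchery and from -3.27 through -1.60 to 0.94 in wild Capilano smolts. It followed C072R068 in the order of the other hatchery groups, at 0.29 ± 0.85 in the Puntledge and -0.34 ± 0.96 in the Chehalis. At the edge of the set, C142R061 was the last probe taken, with a difference of 1.2949 (hatchery 0.14, wild -1.16). C188R059 was the first left out, with 1.2944 (hatchery 1.03, wild -0.26). No step in size separates the 150 from the next probes.

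Measured from the other smolts, Capilano hatchery smolts lay farther away than Capilano wild smolts, the wild fish that stood apart included. Capilano hatchery smolts were above the 19 other hatchery smolts in 148 of the 150 probes, by a median of 0.84. Capilano wild smolts were above the 15 other wild smolts in 32 probes and below them in the rest, with a median difference of -0.26. Over all season-flat probes the same differences had medians of -0.03 and -0.06. Against all 34 smolts outside the Capilano, the median was 1.03 for the hatchery and -0.47 for the wild smolts. All of these share the Capilano fish that chose the probes, so they are descriptions. On the control spots the Capilano wild smolts lay farther away, at 0.12 against 0.43 in the other wild smolts. Capilano hatchery smolts stood at 0.51 there, against 0.44 in the other hatchery smolts. Whether the control level shifts the levels of the probes was not tested.

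Across the 6 smolt groups the Capilano hatchery smolts had the highest mean in 146 of the 150 probes, and the Capilano wild smolts the lowest in 84. In 41 probes the Salmon River wild smolts were lowest, and in 21 the Chilliwack wild smolts. A hatchery group was lowest in 4 probes: the Chehalis in C146R165 and C228R167, and the Puntledge in C174R035 and C181R158. The 4 probes in which the Capilano hatchery smolts were not highest were C118R104, C127R114 and C167R130, highest in the Puntledge at 0.83, 0.70 and 1.34, and C093R162, highest in the Salmon River at 1.20. These 8 probes were picked for naming after their values were seen.

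**Figure D2:**
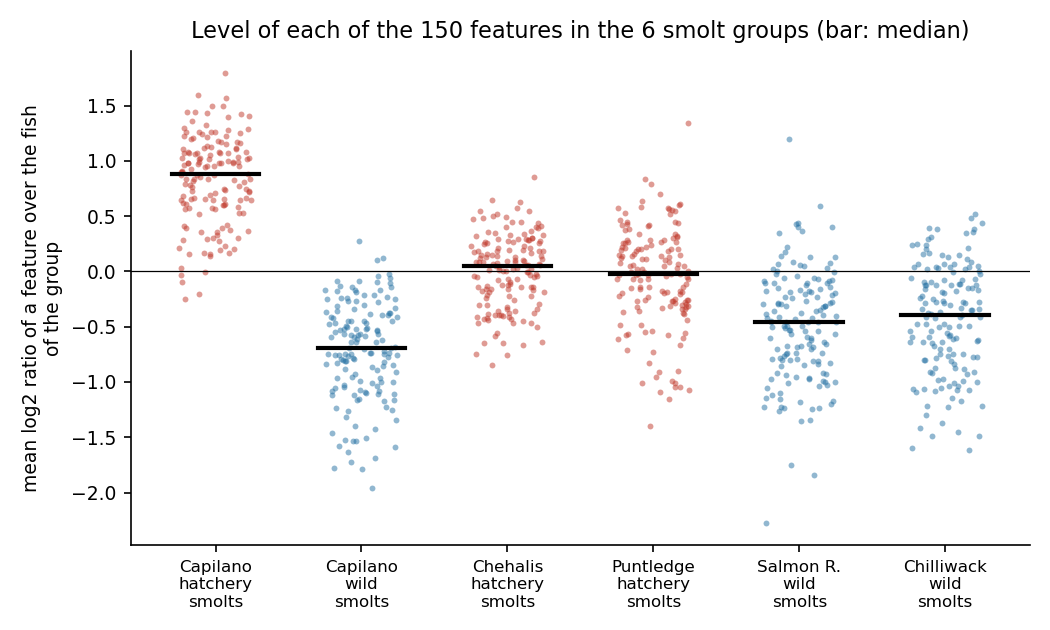
Mean log2 ratio of each of the 150 probes (points) over the fish of the 6 smolt groups, with the median over probes as a bar (red hatchery, blue wild). The Capilano groups, on which the probes were chosen, are the highest and the lowest, and both other hatchery groups have higher medians than both other wild groups.

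The mean over the 150 probes of the remaining smolts was 0.028 ± 0.432 in the Chehalis hatchery fish, from -0.504 to 0.667 (n = 9), and -0.067 ± 0.536 in the Puntledge hatchery fish, from -0.855 to 0.636 (n = 10). It was -0.439 ± 0.676 in the Chilliwack wild fish, from -1.56 to 0.284 (n = 8), and -0.489 ± 0.187 in the Salmon River wild fish, from -0.712 to -0.174 (n = 7). The hatchery groups did not differ from each other beyond their spread, nor did the wild groups. None of these 34 smolts reached the median of the Capilano hatchery smolts, and 9 of them reached their lowest fish. Of all fish other than Capilano smolts 1 reached that median, a west coast fish of fall, and 53 reached the lowest Capilano hatchery fish.

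By season the 150 probes were flat as chosen, yet their means could be ranked. Smolts, which include the Capilano fish, are left out of this ranking, but are 1 of the 6 seasons in the counts below. The mean per fish was highest in spring, at 0.103 ± 0.604 from -1.41 to 0.631 (n = 14), followed by fall at -0.081 ± 0.479 (n = 71), parr at -0.138 ± 0.326 (n = 8), summer at -0.220 ± 0.469 (n = 67) and winter at -0.360 ± 0.186 (n = 12). Each neighbouring pair of seasons in that order lay closer together than 1 SD. Spring was the highest season in 86 of the 150 probes, against 25.9% of all season-flat probes, and winter the lowest in 83, against 23.0%. Spring values were held apart by 2 fish below -1, and 11 of the 14 spring fish lay above 0. All 12 winter fish lay below 0, from -0.660 to -0.118. The range of a probe's 6 season means had a median of 0.74 over the 150 probes and of 0.57 over all season-flat probes. All spring fish were wild fish of the southern Strait, where summer fish stood at 0.027 against -0.424 in the north. In spring fish, season, area and origin therefore cannot be told apart. Winter arrays had 25538 ± 4003 measured probes and spring arrays 21532 ± 4062. The part of this number in the ranking was not tested.

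The probes with the widest ranges were C069R105 and C187R134. C069R105 stood at -1.34 ± 1.14 in parr (n = 8) and -0.03 ± 1.09 in spring fish (n = 14), with -0.37 ± 0.88 in summer and -0.09 ± 0.73 in fall. Of the parr 1 of 8 lay above 0, and 5 of the 14 spring fish did, so the stages overlapped. C187R134 ran the other way. It ranged from -0.55 through a median of 0.43 to 0.72 in the 8 parr and from -2.01 through -0.87 to -0.06 in the 12 winter fish. All winter fish lay below 0 and 5 of the parr above 0.

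The 150 probes moved together in fish outside the Capilano contrast. Those fish entered the choice through the filters on measured arrays and on season means, but not through the Capilano difference. Over all arrays other than those of Capilano smolts, a probe's correlation with the mean of the rest of the set had a median of 0.67, from 0.30 to 0.88, and exceeded 0.5 for 88% of the 150 probes. For the other 8735 season-flat probes the correlation with the mean of the 150 had a median of -0.01 and exceeded 0.5 for 12.9%. It lay below -0.5 for 1017 of them and ran from -0.83 to 0.85, so many of these probes also followed or opposed that mean. The closest to the common course were C192R084 (r = 0.88) and C048R142 (r = 0.87), and the farthest were C124R010 (r = 0.30) and C031R044 (r = 0.34). C048R142 ranged from 0.25 to 1.19 in Capilano hatchery smolts and from -1.16 to 0.65 in the wild ones, with the same single wild fish above 0. Among the other smolts C124R010 had its highest mean in the Salmon River wild fish, at 0.40 ± 0.22 with all 6 measured fish above 0, where most of the 150 probes were low.

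These correlations are over arrays that share a reference pool and, in part, slides. Within seasons the median correlation between 2 of the 150 probes was 0.35 in parr, 0.51 among smolts outside the Capilano, 0.57 in spring fish, 0.49 in summer fish and 0.47 in fall fish, but 0.11 in winter fish. Among all 11175 pairs it was 0.44. The pair C072R068 and C085R045, named after its value was seen, was the single one above 0.95, and whether any of the probes report the same transcript is not known here. The mean of the 150 probes had r = -0.91 with the mean of the 150 season-flat probes lowest in Capilano hatchery against wild smolts, over the same arrays. It had r = 0.38 with the control spots (without 1 Salmon River array that had none measured) and r = -0.39 with the number of measured probes. By season, the correlation with the number of measured probes was 0.15 in parr, -0.63 in smolts outside the Capilano, -0.67 in spring fish, -0.46 in summer fish, -0.19 in fall fish and -0.04 in winter fish. The correlation with the control spots was 0.23 in parr, 0.15 in those smolts, 0.56 in spring fish, 0.41 in summer fish, 0.50 in fall fish and -0.41 in winter fish. The part of control level and array quality in the common course was not tested.

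**Figure D3:**
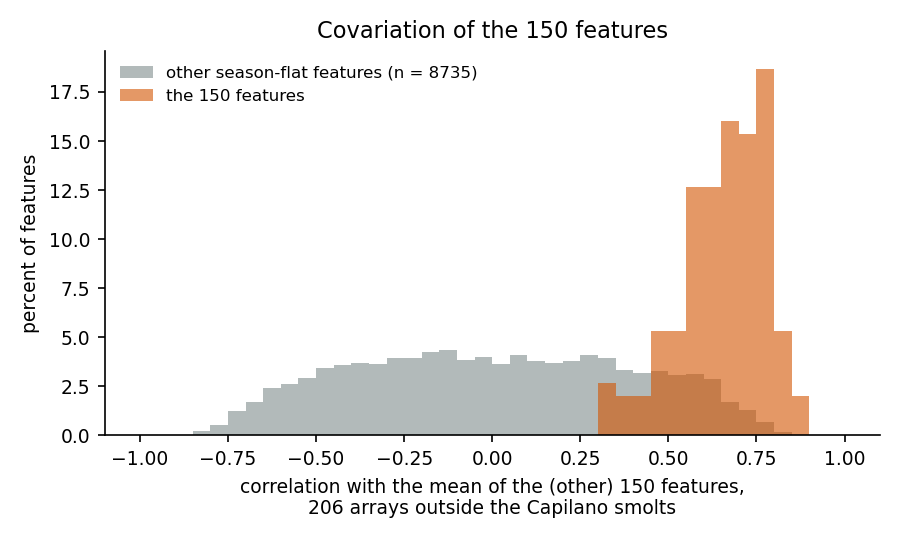
Correlation with the mean of the 150 probes, over all arrays other than those of Capilano smolts and in percent of probes per bin, for the 150 probes (orange, each left out of its own mean) and the other 8735 season-flat probes (grey). The 150 probes lie between 0.30 and 0.88.

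The 150 probes also varied more between fish than other season-flat probes. Their SD over the same arrays had a median of 0.73, against 0.50, and 7.88% of the other season-flat probes had an SD at or above 0.73. On the array they lay between column 9 and column 264 of 266 and between row 2 and row 170 of 170. When the array was split at its middle column and row, the field of high columns and low rows held 16.7% of the 150 probes against 25.3% of all season-flat probes, and the field of low columns and high rows 30% against 25.3%. The other fields held 26% against 25.3% and 27.3% against 24.0%.

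Origin was then tested away from the Capilano, in smolts of the Fraser stock, with limma over all probes measured and slide as a random block. In 25 of 148 tested probes Chehalis hatchery smolts (n = 9) were higher than Salmon River wild smolts (n = 7), and 1 probe was lower. Of all 16668 probes tested, 8.05% were higher and 7.76% lower. The median difference was 0.43 over the tested probes of the set and 0.01 over all probes, and 86.5% of the 148 were higher in the hatchery fish, called or not. Among season-flat probes, 5.25% were higher. The 25 calls had differences from 0.69 to 1.57 (adjusted p from 0.00839 to 0.0499).

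C205R125 was among the largest. It ranged from -0.48 through 0.24 to 1.70 in the 9 Chehalis smolts and from -2.73 through -1.18 to -0.27 in the 7 Salmon River smolts. All but 1 of the Chehalis smolts lay above every Salmon River smolt (difference 1.56, SE 0.40, limma adjusted p = 0.0152). C056R140 ranged from -1.68 to 0.73 in Chehalis and from -3.69 to -0.36 in Salmon River smolts, so the groups overlapped (difference 1.57, SE 0.49, limma adjusted p = 0.0367). C093R162 was the probe that ran the other way. It ranged from -1.04 to 0.30 in Chehalis and from 0.30 to 2.43 in Salmon River smolts, just without overlap (difference -1.36, SE 0.32, limma adjusted p = 0.00927).

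This count depended on the arrays. Chehalis arrays had 19046 ± 3698 measured probes and Salmon River arrays 22684 ± 4359, and the control spots averaged 0.467 ± 0.0785 and 0.286 ± 0.260 (6 arrays). In either direction 26 of the 148 were called, against 15.8% of all probes. When measured probes per array entered as a covariate, 4 of the 148 were called, against 6.67% of all probes. The median difference then fell from 0.43 to 0.25. Without the 2 Chehalis arrays under 15000 measured probes 10 were called, against 11.3%, and with fork length as a covariate 6, against 6.73%. The median differences were 0.29 and 0.42. With the control spots as a covariate 37 were called, against 20.2%, and the median difference was 0.57. The rivers shared no slide, and river and origin were one contrast, so slide, river and origin cannot be told apart. In the hatchery fish alone, Puntledge against Chehalis, 0 of 148 were called with limma (14 at an unadjusted p under 0.05), where 0.745% of 16655 probes were higher and 1.86% lower. The median difference was 0.02. Here and below, counts at an unadjusted p under 0.05 cannot be compared with shares of called probes. Unless stated, the share of all probes at that cut is not given. Without that share, and as the probes moved together, such a count is not taken as an effect on the set.

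At sea, hatchery and wild fish of the Strait of Georgia in 2009 were not told apart by the test. In summer the mean over the 150 probes was -0.399 ± 0.350 in 25 hatchery and -0.198 ± 0.440 in 27 wild fish. In fall it was -0.114 ± 0.378 in 26 hatchery and -0.292 ± 0.416 in 27 wild fish. Hatchery fish thus had the lower mean in summer and the higher one in fall, both within 1 SD. Catch area was not matched between origins and did not enter the origin fits. In summer more of the wild than of the hatchery fish came from the southern Strait. Southern summer fish averaged 0.027, against -0.424 in the north and -0.447 in the middle. The part of area in the origin differences was not tested. With limma 0 of 150 probes were called in either season (11 at an unadjusted p under 0.05 in summer and 17 in fall), where 0% of 16802 probes were called. The median difference, hatchery minus wild, was -0.15 in summer, with 15 of 150 probes above 0, and 0.15 in fall, with 126 above 0. As the probes moved together, these counts largely repeat the shift of the mean. The change of the difference from summer to fall was called for 0 probes (28 of 150 at an unadjusted p under 0.05, against 7.77% of all probes), with a median of 0.30.

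Fish of the Capilano's stock label were compared on their own. Among S_Main fish of summer and fall, 13 hatchery fish averaged -0.235 ± 0.352 over the 150 probes and 17 wild fish -0.253 ± 0.372. With season as a covariate 0 of 150 probes were called with limma (6 at an unadjusted p under 0.05), where 0% of 16802 probes were called. The median difference over the 150 was 0.03. No S_Main fish reached the median of the Capilano hatchery smolts. The label names a region, and how many of these fish left the Capilano is not known here.

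Fish from different catch areas were compared next. Among wild fall fish of 2009, 32 of the 150 probes were higher in 9 fish of the west coast of Vancouver Island than in 27 fish of the Strait of Georgia, and none was lower (limma). Of all 16801 probes, 4.03% were higher and 3.91% lower. The median difference over the 150 was 0.62, or 1.54-fold, against 0.00 over all probes, and 94.7% of the 150 lay above 0. Averaged over the 150 probes, west coast fall fish stood at 0.193 ± 0.573, from -0.506 to 0.909, and Strait fish at -0.292 ± 0.416, from -0.861 to 0.716, so the areas overlapped.

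C021R162 carried the largest called difference in fall. It ranged from -0.999 through 1.05 to 1.42 on the west coast and from -1.47 through -0.69 to 1.03 in the Strait, and 5 of the 9 west coast fish lay above every Strait fish (difference 1.32, SE 0.25, limma adjusted p = 0.00598). C127R125 ranged from -0.44 through 0.12 to 1.56 and from -1.77 through -0.54 to 1.19, with 3 west coast fish above the Strait (difference 1.12, SE 0.28, limma adjusted p = 0.0196). Both were also among the probes that followed the common course, with r of 0.78 and 0.83.

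West coast fall fish were larger, at 29.5 ± 2.37 cm against 23.3 ± 2.54 cm, and their control spots averaged 0.598 ± 0.207 against 0.338 ± 0.258. With fork length as a covariate 0 of the 150 were called (41 at an unadjusted p under 0.05) and with the control spots as a covariate 0 (37), by limma in both cases, and over all probes 20 and 1 were called. The median difference was then 0.56 and 0.36. The areas had 1 slide in common, and 0 probes of the set and 0% of all probes were called with a fixed slide block (12 at an unadjusted p under 0.05).

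In summer the same areas gave 4 higher and 0 lower of 150 with limma, against 2.61% higher and 3.7% lower of all 16801 probes. That share is near the background. At an unadjusted p under 0.05, 44 of the 150 passed, a count not comparable with these shares. The share of all probes at that cut is not given, so this count is not taken as an effect on the set. The median difference was 0.33 against -0.03, with 133 of 150 above 0. C165R005 ranged from -1.53 through 1.02 to 1.84 in 9 west coast fish and from -1.98 through -0.54 to 0.77 in 27 Strait fish (difference 1.31, SE 0.30, limma adjusted p = 0.0115). Of the west coast fish 7 lay above every Strait fish and 1 far below the others. C185R167 ranged from -0.44 through 1.91 to 2.38 on the west coast and from -1.34 through 0.16 to 2.77 in the Strait, so no west coast fish lay above the highest Strait fish (difference 1.31, SE 0.36, limma adjusted p = 0.0277). The other calls, named after their values were seen, were C264R017 (0.89) and C013R010 (0.97). None of the 4 was among the 32 probes called in fall. When measured probes per array entered as a covariate 1 of the 150 was called, against 1.25% of all probes, and with fork length 2, against 1.96%, and the areas shared no slide. Stock labels differ between the areas, so stock and area were mixed.

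Within the Strait in summer, northern fish had the lower levels. With origin as a covariate 6 of the 150 probes were lower in 15 northern than in 16 southern fish and 0 were higher (limma). Of all 16802 probes, 0.684% were lower and 0.869% higher. At an unadjusted p under 0.05, 71 of the 150 passed, a count not comparable with these shares. The share of all probes at that cut is not given, so this count is not taken as an effect on the set. The median difference was -0.43 against 0.00, and 9 of 150 lay above 0. Averaged over the 150 probes, northern fish stood at -0.424 ± 0.241, from -0.703 to 0.275, and southern fish at 0.027 ± 0.505, from -0.785 to 0.855. The middle Strait, with 21 fish at -0.447 ± 0.272, lay with the north. Most wild southern fish had the stock label ECVI, and no wild northern fish had it. Among hatchery fish it was the reverse, with ECVI in most northern and few southern fish. Stock was not in the fit, so stock and area were mixed here as well.

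C183R137 ranged from -1.67 through -0.51 to 1.21 in 15 northern and from -0.71 through 0.50 to 2.30 in 14 southern fish (difference -1.21, SE 0.29, limma adjusted p = 0.0455). C020R108 ranged from -1.57 through -0.89 to 0.51 and from -0.90 through 0.38 to 1.25 (difference -0.80, SE 0.22, limma adjusted p = 0.0493). All 6 calls were near the threshold, and the groups overlapped in each. The call ended without the 1 southern array under 15000 measured probes (0 of 150, 65 at an unadjusted p under 0.05) and with fork length as a covariate (0, 74), fits in which 0.0238% of all probes were called. It also ended with quantile normalization (0, 69), against 0.327% of all probes, and with slide as a fixed block (0, 6), against 0%. Without a slide block 39 of the 150 were called, against 14.8% of all probes. In fall, 9 northern against 25 southern fish gave 0 of 150 with limma (4 at an unadjusted p under 0.05), where 0% of all probes were called, and a median difference of 0.11.

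**Figure D4:**
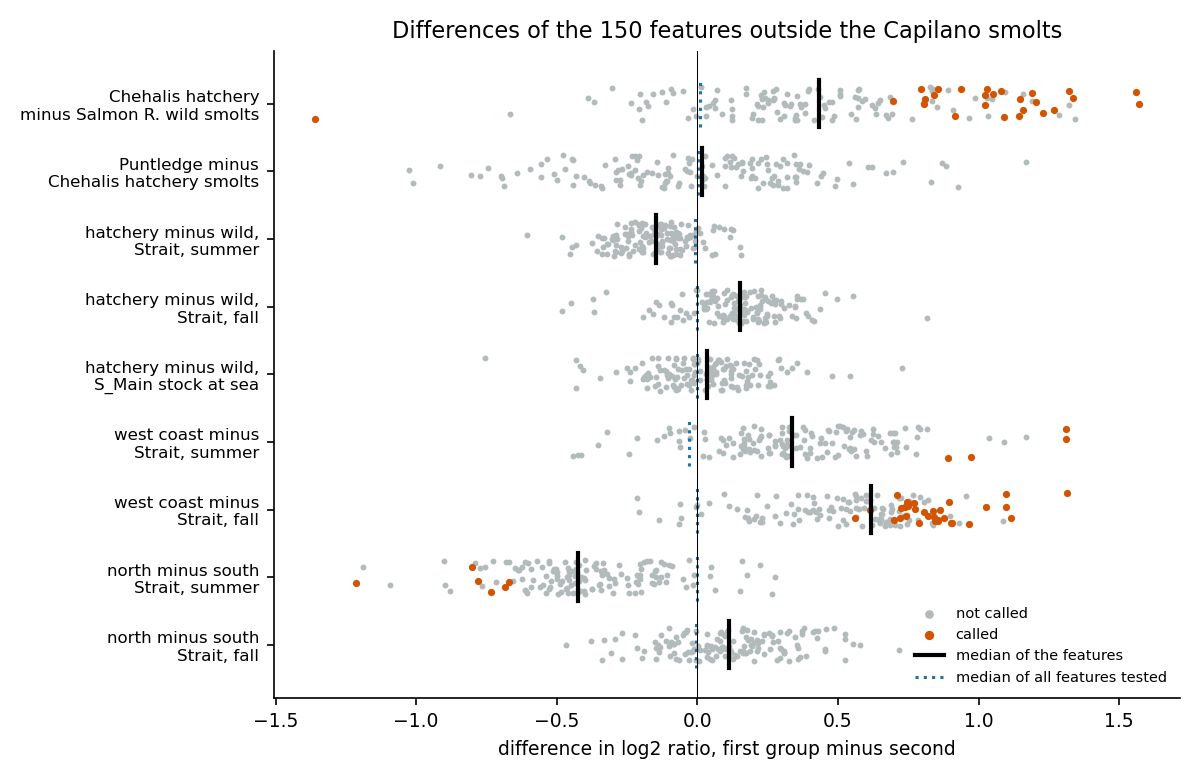
Difference in log2 ratio of each of the 150 probes (points) in 9 comparisons outside the Capilano smolts, orange where called at an adjusted p under 0.05, with the median over the 150 probes (black bar) and over all probes tested (dotted line). The median of the 150 lies at 0.62 for west coast against Strait in fall and at -0.43 for northern against southern Strait in summer.

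Over all 12 tests, those on body size included, 58 of the 150 probes were called in at least 1 and 92 in none, against 28.5% of all 16802 probes called in at least 1. In more than 1 test 9 of the 150 were called, against 5.17% of all probes, so that count was near the background. The Chehalis and Salmon River comparison and the west coast comparison of fall, which share no fish, had 6 called probes in common, all higher in both, which is 23.1% of 26 and 18.8% of 32. Over all probes 297 were called in both, or 1.78%. That is 11.3% of those called in the first and 22.3% of those called in the second. These 297 were counted in either direction, and not all of them were higher in both. Of the 150 probes, 25 of the 26 calls in the first and all 32 in the second were higher. The shared direction of the 6 was therefore nearly fixed by these counts.

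Body size was tested within smolts outside the Capilano, with river as a covariate (n = 34). The slope on fork length was called for 0 of 150 probes with limma (2 at an unadjusted p under 0.05), with a median of 0.02 per cm, and 0% of all 16802 probes were called. The slope on condition factor was called for 0 of 150 (5 at an unadjusted p under 0.05), where again 0% of all probes were called. Its median was -1.12 per unit of condition factor, and 28 of 150 slopes lay above 0, a count over probes that moved together.

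The probes were chosen for high Capilano hatchery and low Capilano wild smolts, so the levels of these smolts within slides are descriptions, without a test. Some slides held Capilano smolts together with other fish, all of them caught at sea. The hatchery smolts lay above every other fish on 3 such slides, with means of 0.844 against -0.533 for 2 fish, 0.909 against -0.008 for 2 fish and 0.776 against 0.046 for 3 fish. On the other shared slide 1 hatchery smolt at 0.613 lay among 3 wild summer fish of the southern Strait at 0.855, 0.443 and 0.352. The wild smolts lay below every other fish on 2 shared slides, at -1.18 against a mean of -0.024 for 3 fish and at -0.676 against 0.171 for 2 fish. On the slide of the wild smolt that stood apart, the other fish, a northern summer fish at -0.688, lay between the wild smolts.

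**Figure D5:**
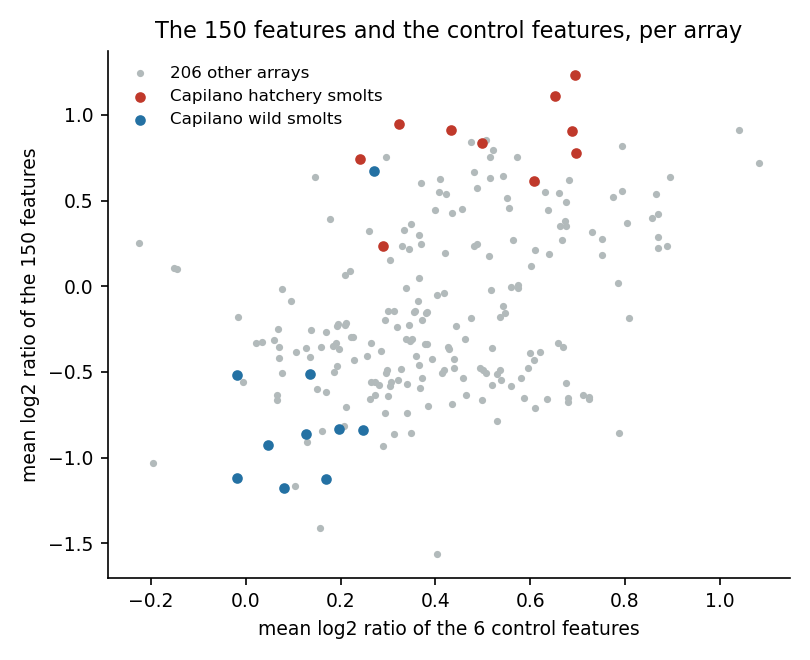
Mean log2 ratio of the 150 probes against that of the 6 control spots, 1 point per array (red Capilano hatchery, blue Capilano wild, grey other fish with a control value). Capilano hatchery smolts average 0.513 and wild smolts 0.124 on the control axis.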

How the data were processed

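RNA was extracted from liver, amplified, and labelled with Alexa 555 for each fish and Alexa 647 for the pooled reference, per the labels' protocols. For the scanner, the normalization and the rule behind empty cells, details were not given in the sources used here. Log2 ratios were deposited by the authors, with base and direction taken as likely. A second deposited table, whose headers name no unit and whose unit was recorded as a score, held the same log2 ratios for 43567 probes with 0 unequal cells and 18 control spots more. In all 49.9% of cells were empty, and array medians lay between -0.01 and 0.06. No column was left without a sample.

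The members, lists and tests were chosen with earlier results of these data known. Ratios were fitted per probe with lmFit and eBayes (limma 3.58.1, R 4.3.3), with slide (60 slides) as a random block. The consensus correlation was 0.186, from 3000 drawn probes. A fitted difference can therefore depart from the difference of means. A probe needed 3 measured arrays per group, and a call an adjusted p (Benjamini-Hochberg over all probes tested) under 0.05. Values after ± are SD. P-values measure the spread between fish. Permutation tests used SciPy 1.17.1.

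No identifier matched the RefSeq gene table (0 matches), so planned gene lists were not used. Probes were named by size of the Capilano difference, size among called probes per test, correlation with the other members, or range of season means, 2 per direction, and any further probe is said to be named after its values were seen. The fits were tested on simulated ratios. Their spread was set from each probe's SD over all arrays and few probes were changed, which can differ from the real comparisons. The power of the real fits may therefore differ from the recovered counts. Of simulated differences of 1, the Chehalis against Salmon River fit recovered 9 of 67. The west coast fall fit recovered 34, the northern against southern summer fit 46 and the summer origin fit 60 of 67. Of differences of 0.5 the same fits recovered 0, 2, 3 and 28 of 67. A count of 0 calls therefore does not show that groups were alike. Alternatives covered the slide block, quantile normalization, measured probes, the 95% filter and, chosen after seeing the data, control spots, fork length and arrays under 15000 measured probes.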

Additional observations from a re-analysis of the deposited data

Results flagged for a closer look

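Outlying fish were looked for with Dixon's ratio in 23 groups of values, and 4 held one, where chance gives about 1 in 20. The Capilano wild smolt that stood apart was one: its mean over the 150 probes was 0.674, with the next wild smolt at -0.512. In C072R068 the same wild smolt was highest, at 1.59, with the next at -0.91, so that flag repeats the first. Groups of values that hold the same fish are not independent. In both probes named for the west coast in summer, 1 of 9 fish lay far below the others, at -1.53 for C165R005, with the next at 0.56, and at -0.44 for C185R167, with the next at 1.26.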

How the results depend on the processing

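No paired analysis was possible because replicate numbers were given in accession order and pair no fish. For the choice of probes, quantile normalization kept 105 of the 150 and the 95% filter 120, and medians in place of means, or leaving out any 1 Capilano slide, kept more than 105. A gap under 0.3 kept 72 and a gap under 0.5 kept 91. Leaving out, as an alternative chosen after seeing the data, the wild smolt that stood apart kept 133. Chehalis against Salmon River gave 26 calls, and 46 without a slide block, 15 with quantile normalization, 4 with measured probes as a covariate, 6 with fork length and 10 without arrays under 15000 measured probes. Puntledge against Chehalis gave 1 without a slide block and 1 with measured probes. West coast against Strait in summer gave 4, and 9 without a slide block, 2 with quantile normalization, 1 with measured probes and 2 with fork length. In fall it gave 32, and 0 with slide as a fixed block, 9 with quantile normalization, 20 of 120 with the 95% filter, 0 with the control spots and 0 with fork length. Northern against southern Strait in summer gave 6, and 39 without a slide block, 22 with the control spots, and 0 each with slide as a fixed block, quantile normalization, fork length or without the 1 array under 15000 measured probes. Of all probes, 28.3%, 11.5%, 12.1% and 14.8% were called without a slide block in the Chehalis, west coast summer, west coast fall and northern comparisons, and 14.7%, 1.20%, 2.55% and 0.327% with quantile normalization. No such share is given for the 95% filter, for Puntledge against Chehalis, or for the northern comparison with the control spots. Those counts are therefore not set against a background. The cause of the changes between settings was not tested. In the remaining 48 of 70 alternatives counts stayed within 1.5 times. Most of these 48 set 0 calls against 0, in comparisons whose main fit called none of the 150 probes. In the comparisons whose main fit did call probes, most alternatives moved the count. Of 66 alternatives for single named probes 43 kept the call, 23 lost it and 0 turned the direction. A fixed slide block could not be fitted for Chehalis against Salmon River or for the west coast in summer, which share no slide. The other deposited table held the same values and gave no alternative.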
